A study of Rana pirica with 14 samples.

Results

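Gene expression in the tail was compared between Rana pirica tadpoles that still lived with larval salamanders and tadpoles from which these had been removed. The comparison used 6 of the 14 arrays of the series, 3 of tadpoles kept with larval salamanders for 8 days (Salam) and 3 of tadpoles kept with them for 4 days and then for 4 days without a predator (−Salam), both sampled on day 8. The arrays were chosen by their titles alone, and all probe sets apart from those of added control transcripts were compared, 15491 of 15611. The other arrays, which entered the fit but not the comparison, were 2 of tadpoles without a predator (Cont) and 3 each of tadpoles kept with dragonfly larvae for 8 days (Drago) or for 4 days followed by 4 days without them (−Drago). All tadpoles were of stages before the hind limb grows. The pair of groups asks which expression differences go with the continued presence of the salamander once the tadpole has been exposed to it. Per the study, larval salamanders bit some tadpoles and killed a few, while the caged dragonfly larvae harmed none. The continued presence of the salamander can thus not be told apart from bites and losses that came with it.

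Tadpoles of this frog that live with larval salamanders, which swallow their prey whole, grow a bulgy body and a deeper tail fin, and the shape can return towards the ordinary one once the predator is gone. The tail holds swimming muscle, a notochord, nerve cord, vessels and blood, and a fin of loose matrix under an epidermis. Predator cues can therefore act on several tissues at once, and an array of the whole tail reads all of them together.

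The values were log2 signals from an array designed for Xenopus laevis, in which the middle of the 14 arrays was set to 0 for every probe set. A value of 1 thus means a signal 2 fold above the middle array of that probe set, and neither the signal level nor the order of levels between genes is known. Probe set symbols end in .L or .S for the gene copies of Xenopus laevis, and they do not name copies in Rana pirica. The annotation gave 1 symbol for 9304 probe sets, several for 195 and none for 5992. The methods describe the tail tissue of all tadpoles of a treatment as combined, in 1 tube, before RNA was extracted, which as written is 1 pool for each group, although the labels call the arrays biological replicates. The tests thus measure the spread between these arrays, which may be technical, and not that between tadpoles or aquaria. In whole tail tissue, fewer cells of a type and less RNA per cell cannot be told apart. Because levels were lost, the presence of the tail's cell types could not be checked, and their marker genes are compared between the groups further on.

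Among the control transcripts, Dap gave a split that cuts across Salam and −Salam. The signal of Dap, a bacterial transcript added to follow labelling, was high on Salam arrays 1 and 2 and on −Salam array 1 (2.88 to 4.22) and low on Salam array 3 and on −Salam arrays 2 and 3 (-3.54 to -2.16). Salam and −Salam thus each held arrays of both kinds, in unequal numbers. Cont and Drago did so too, while all −Drago arrays were low (-2.78 to -0.78). Not every control transcript followed this split. Phe was at 1.76, 0.50 and -2.34 on the Salam arrays and at -0.31, 0.23 and -0.30 on the −Salam arrays.

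As a whole, the tail profiles with and without the salamander differed no more than arrays of the same group. The root mean square log2 difference over all probe sets was 1.44 between Salam arrays (1.42 to 1.46, 3 pairs), 1.48 between −Salam arrays (1.44 to 1.502, 3 pairs) and 1.46 between a Salam and a −Salam array (1.45 to 1.49, 9 pairs). The distances between the groups therefore lay within the range of the distances inside them.

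**Figure D1:**
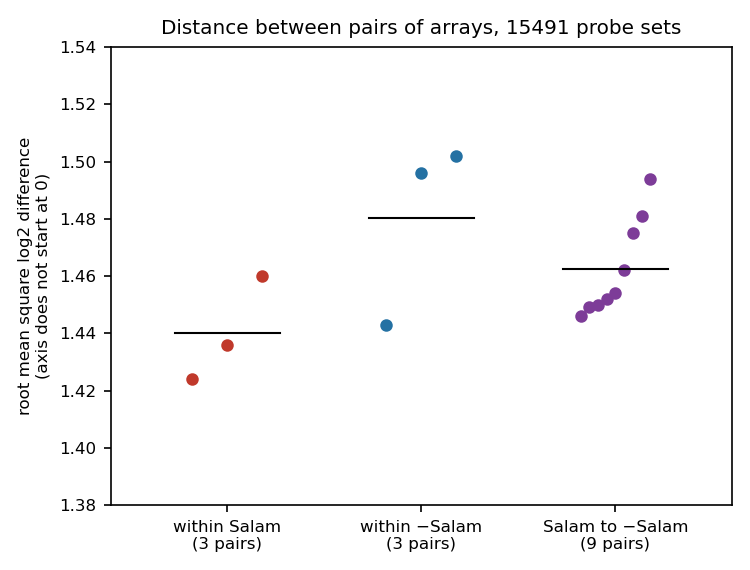
Root mean square log2 difference between pairs of arrays over 15491 probe sets (vertical axis, not starting at 0), for pairs within Salam, within −Salam and between them; points are pairs and lines are means. The 9 pairs between the groups (1.45 to 1.49) lie inside the range of the 6 pairs within them (1.42 to 1.502).

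At the level of single probe sets, 0 of 15491 (0%) passed limma at an adjusted p (Benjamini-Hochberg) under 0.05, and the smallest adjusted p was 0.193. At an unadjusted p under 0.05 there were 851 (5.49%), against 775 that this threshold gives when nothing differs. Of these, 422 (2.72% of all) were higher in Salam and 429 (2.77%) were higher in −Salam. The median absolute difference over all probe sets was 0.52 on the log2 scale, below the median standard error of a difference of 0.77. The other tools counted 0 as well at an adjusted p under 0.05, with 376 and 382 probe sets at an unadjusted p under 0.05 in the ordinary test that pools the spread of the 5 groups, and 382 and 369 in an ordinary test on the 6 arrays alone.

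Differences over 5 fold, the size that the study's methods screened on, were found in 81 probe sets higher in Salam (0.523%) and in 73 higher in −Salam (0.471%). In 126 of these 154 the 3 arrays of one group lay on 1 side of the 3 of the other, and in 28 the groups overlapped. Over all probe sets, the Salam arrays lay wholly above the −Salam arrays in 771 (4.98%) and wholly below them in 797 (5.14%). With 3 arrays against 3, the smallest p of a two-sided exact permutation test is 0.1. A gap between the groups in a single gene thus cannot pass a threshold of 0.05 in that test. When nothing differs, a share of 0.1 of probe sets is to have a gap in either direction, and 10.1% had one here.

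**Figure D2:**
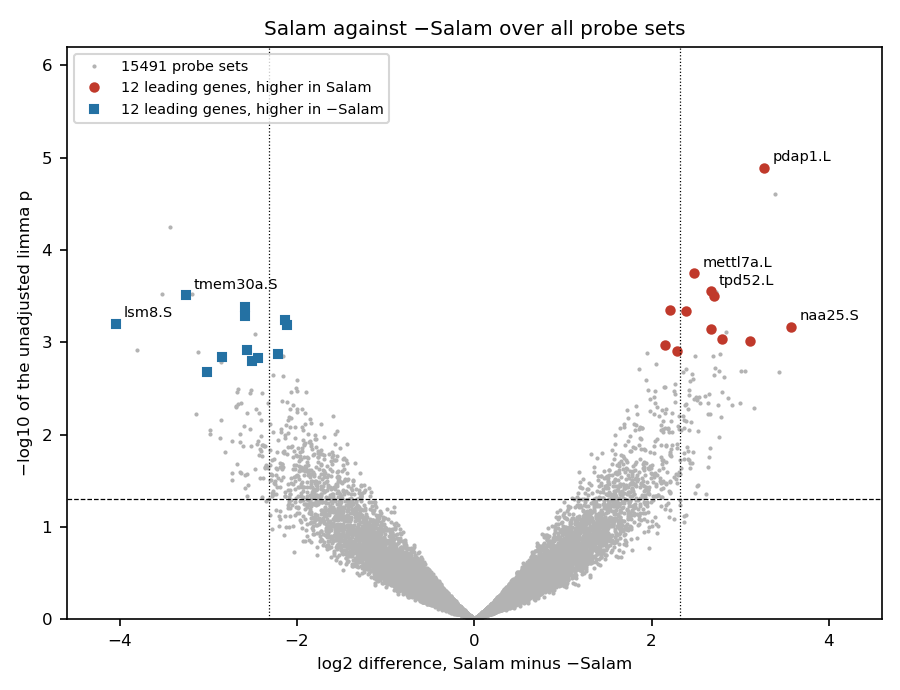
Log2 difference between the means of Salam and −Salam (horizontal axis) against −log10 of the p of limma before adjustment (vertical axis) for 15491 probe sets, with the 12 leading genes in each direction coloured; the dashed line is the unadjusted threshold and the dotted lines are 5 fold. The points are spread alike to both sides, with 422 and 429 past the dashed line, and 0 probe sets passed after adjustment.

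The gene with the smallest p was pdap1.L, a gene for a phosphoprotein named for its binding to platelet-derived growth factor A. Its value was 3.31, 3.60 and 3.52 on the Salam arrays and 0.15, -0.16 and 0.63 on the −Salam arrays. The 24 leading genes were chosen as the smallest p without overlap, so the gap between the groups was fixed by that choice. On the Salam arrays pdap1.L also lay far above all 8 arrays of the other groups, which ran from -0.75 to 0.56. This distance is not independent evidence, since the study selected the probe set on these same arrays. The difference was 3.27 (SE 0.51, 9.66 fold), with an adjusted p of 0.193 in limma, and it ran from 3.09 to 3.49 when each of the 6 arrays was left out in turn. The probe set of the other gene copy, pdap1.S, differed by 0.20 (SE 0.54).

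For mettl7a.L, a gene for a methyltransferase-like protein of membranes and lipid droplets, it was −Salam that stood apart. The values were 0.38, 0.85 and -0.045 on the Salam arrays and -1.78, -2.46 and -2.01 on the −Salam arrays, while the other 8 arrays lay between -0.16 and 0.60. The difference was 2.48 (SE 0.50, 5.57 fold, adjusted p 0.491 in limma), and a second probe set of mettl7a.L differed by 0.65 (SE 0.85). The same shape was seen in elavl1.S, whose product binds AU-rich elements and stabilizes mRNAs. Its values were 0.60, 0.69 and -0.37 on the Salam arrays and -1.96, -2.10 and -1.63 on the −Salam arrays, below every other array, with a difference of 2.20 (SE 0.49, adjusted p 0.504 in limma). In the study's quantitative PCR of this gene, −Salam was also below Cont, but by far less than on the study's arrays. The study's own test found no significant difference between the methods. That test left out Drago, since per the study the observations were too few to include all groups.

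Among the other leading genes higher in Salam, pecr.S and naa25.S were higher on the Salam arrays than on all others. For naa25.S, Drago array 1 (2.18) came close to the lowest Salam array (2.28). pecr.S encodes a peroxisomal enoyl-CoA reductase of fatty acid elongation, with 2.38, 1.79 and 2.16 on the Salam arrays against 0.19, -0.98 and -0.045 on the −Salam arrays. naa25.S encodes the auxiliary subunit of an N-terminal acetyltransferase and had the largest mean difference towards Salam, 3.58 (SE 0.83, 11.9 fold, adjusted p 0.551), with 2.41, 2.28 and 2.56 against -0.93, -0.018 and -2.53. The Salam arrays of naa25.S lay close together, while the −Salam arrays spread over more than the distance of the highest of them to Salam. Another probe set of naa25.S, designed for the same transcript cluster, differed the other way, by -1.56 (SE 0.93).

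Other leading genes of this direction had low −Salam values, in some of them of wide spread. tpd52.L, of a family of membrane traffic proteins, was at 0.97, 1.26 and 1.196 on the Salam arrays and at -0.83, -1.65 and -2.09 on the −Salam arrays, a difference of 2.67 (SE 0.56). Other probe sets of tpd52.L differed the other way, by -0.036, -0.84 and -0.39, and that of tpd52.S differed by 0.53. For serpina3.L, of the serine protease inhibitors, the difference was 2.70 (SE 0.58), with -0.0033 to 0.95 against -3.02 to -1.07. dscc1.L, which serves sister chromatid cohesion, differed by 3.11 (SE 0.76), and its 3 −Salam values (-2.96, -1.30 and -3.25) spread widely. Another probe set of dscc1.L differed by -0.56 (SE 0.83). mok.L, a gene for a protein kinase, differed by 2.67 and cyb5b.S, the cytochrome b5 of the outer mitochondrial membrane, by 2.28. The probe set of the other gene copy, cyb5b.L, differed by -0.63 (SE 0.91). The genes known only as XB5768883.L and XB5795058.S differed by 2.79 and 2.15. In mok.L, cyb5b.S and XB5795058.S the −Salam arrays lay below every other array. zbtb33.S encodes the methyl-DNA binding repressor Kaiso. Its difference of 3.44 (SE 0.92) was 1 of the 3 largest of this direction among probe sets with 1 symbol. The values were 2.84, 2.01 and 0.79 on the Salam arrays and -0.84, -1.83 and -1.998 on the −Salam arrays. Cont array 1 (1.996) and Drago arrays 1 and 2 (2.01 and 2.895) were as high as Salam. Other probe sets of zbtb33.S differed by 0.27 and 0.040.

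The largest difference of all was towards −Salam, in lsm8.S, a gene for a protein of the ring that holds U6 small nuclear RNA in splicing. The values were -1.61, -0.95 and -1.47 on the Salam arrays and 3.79, 0.83 and 3.49 on the −Salam arrays. −Salam array 2 thus lay much nearer to Salam than the other −Salam arrays did, and Drago array 1 also reached 2.35. The difference of -4.05 (SE 0.93, 16.5 fold, adjusted p 0.551 in limma) ran from -4.99 to -3.50 with single arrays left out. Other probe sets of lsm8.S differed by -0.46 and -0.045.

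tmem30a.S, the partner subunit of phospholipid flippases, had the smallest p of the named genes in this direction. Its values were -0.28, -0.13 and -1.45 on the Salam arrays and 3.89, 2.50 and 1.52 on the −Salam arrays, a difference of -3.26 (SE 0.69, 9.57 fold, adjusted p 0.491). −Drago array 3 stood at 2.48, inside the −Salam range, and the difference between Drago and −Drago was -1.72 (SE 0.69). The probe set of the other gene copy, tmem30a.L, differed by 0.55 (SE 0.81) between Salam and −Salam.

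vps35.S encodes the core of the retromer, which recycles membrane proteins from endosomes, and it was low in Salam, at -1.19, -2.53 and -1.66 against 0.88, 0.61 and 0.88 in −Salam. Here Cont (0.77 and 0.97) lay near −Salam, and −Drago (-1.89 to -0.98) lay near Salam. c19orf47.S, of unassigned role here, was the tightest of the leading genes within its groups, at 0.13, -0.010 and 0.11 on the Salam arrays and 2.23, 2.02 and 2.32 on the −Salam arrays, above all other arrays. trmt2a.S, of a tRNA methyltransferase, was likewise high in −Salam alone, at 2.45, 2.28 and 1.76 against -1.26, -0.036 and 0.036. In atp2a3.L, a calcium pump of the endoplasmic reticulum, −Salam (1.49, 2.45 and 1.82) also lay above every other array.

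pqbp1.L, a gene for a splicing-related protein, was the 1 leading gene of this direction in which Salam stood apart. On its Salam arrays it was at -1.53, -1.50 and -0.84, below all other arrays, and it differed by -2.21 (SE 0.56). The probe set of the other gene copy, pqbp1.S, differed by 0.74 (SE 0.59). The differences were -2.85 (SE 0.73) for rela.L, the p65 subunit of NF-κB, -2.56 for camk2g.S, a calcium- and calmodulin-dependent kinase, -2.44 for faah.1.S, a fatty acid amide hydrolase, and -3.01 for nxn.S, the redox protein nucleoredoxin. Another probe set of nxn.S differed by -0.39 (SE 0.63). nckap5l.S had 1 of the 3 largest mean differences towards −Salam among probe sets with 1 symbol, at -3.14 (SE 0.98), with 1 Salam array (0.52) apart from the other two (-1.40 and -1.58). Another probe set of nckap5l.S, designed for the same transcript cluster, differed in the same direction, by -2.01 (SE 0.82). The remaining probe set of nckap5l.S differed by -0.050 (SE 0.49). The adjusted p of the 24 ran from 0.193 to 0.666.

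**Figure D3:**
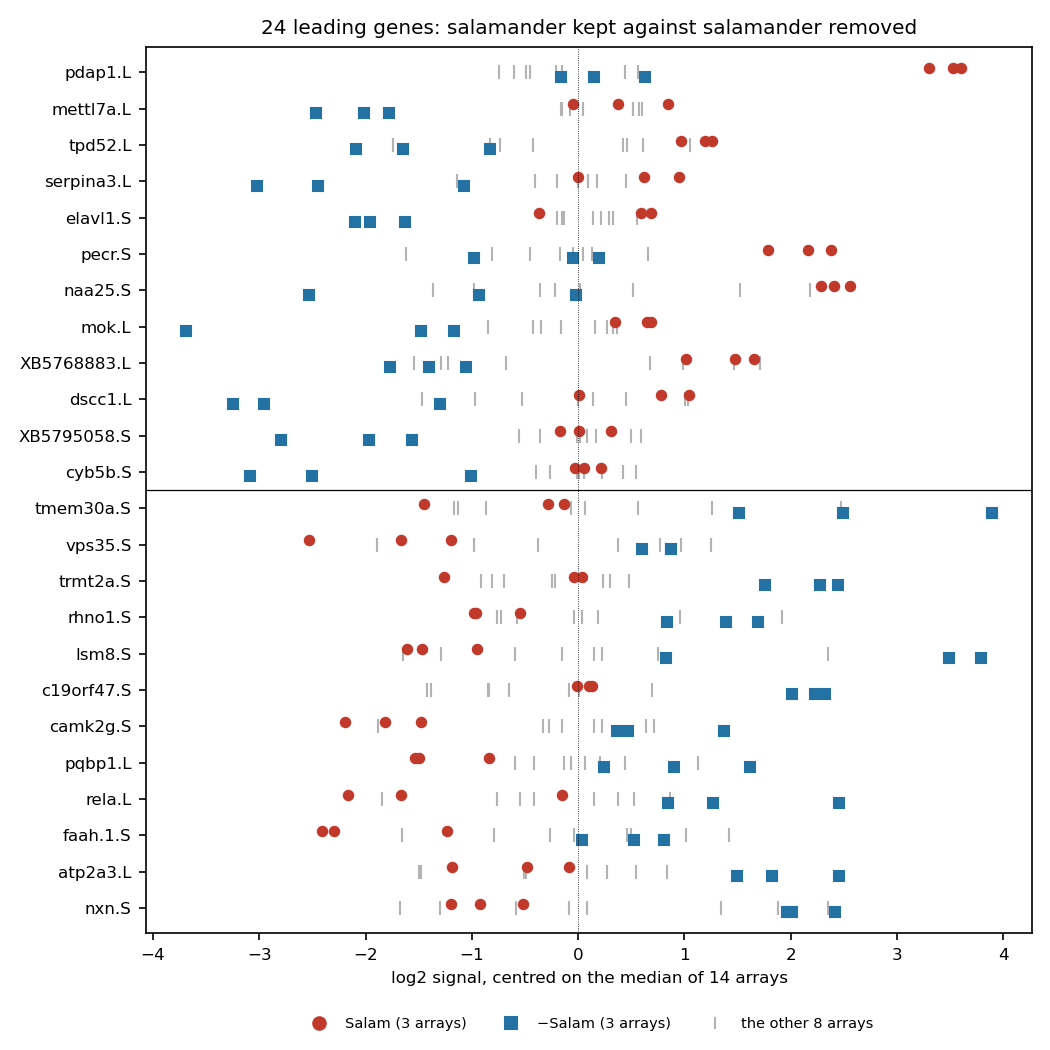
Centred log2 signal (horizontal axis) of the 24 leading genes, with the 3 Salam arrays as circles, the 3 −Salam arrays as squares and the other 8 arrays as grey ticks; the line parts the 12 genes higher in Salam (above) from the 12 higher in −Salam (below). pdap1.L has Salam at 3.31 to 3.60 far from all ticks, while in mettl7a.L, elavl1.S and c19orf47.S the squares stand apart. These genes are among those that the study selected on these same arrays. All 24 were chosen for groups without overlap, so the gap in each row was fixed by that choice.

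The 10 probe sets that the study selected with its one-way test include the leading genes pdap1.L, mettl7a.L, elavl1.S, c19orf47.S and rhno1.S. Since the 10 were selected on these arrays for differences among the groups, their differences and their distance from other arrays are not independent evidence. rhno1.S, which serves the DNA damage checkpoint, was at -0.98, -0.96 and -0.55 on the Salam arrays and at 1.39, 1.69 and 0.84 on the −Salam arrays, and Cont (1.92 and 0.96) lay with −Salam. Its difference was -2.13 (SE 0.49, adjusted p 0.551 in limma). The probe set that the study labels dpm1, for a mannosyltransferase that serves glycosylation, carries 2 symbols in the annotation and was at 0.034, 0.53 and -0.29 against -1.55, -2.74 and -2.49, a difference of 2.35 (SE 0.52, adjusted p 0.504). The probe set that it labels as the laminin chain lamb1 has no symbol in the annotation, and it differed by 1.69 (SE 0.55, adjusted p 0.789). grem1.L, which blocks BMP ligands, was at 0.35, 0.083 and 0.50 in Salam and at -0.28, 0.32 and -0.083 in −Salam, so that the groups overlapped and the difference was 0.32 (SE 0.47). The corepressor bcorl1.L differed by -0.91 (SE 0.45) and the spindle gene dlgap5.S by -0.88 (SE 0.49), with no overlap between the groups in either.

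Over all genes, the differences of probe sets annotated to the same gene showed no correlation. For 2712 pairs of probe sets with an identical symbol it was 0.00107, and 49.6% of the pairs had the same sign. With the .L and .S copies of a gene pooled, there were 4185 pairs over 2013 genes, with a correlation of -0.000283 and the same sign in 50.2%. Among the 453 pooled pairs in which at least 1 member had an unadjusted p under 0.05, 51.2% had the same sign. For the leading genes, 11 had other probe sets on the array, 37 in all, of which 17 differed in the same direction as the leading probe set and 1 had an unadjusted p under 0.05. camk2g.S alone held 22 of the 37, that 1 included, and of the 15 others 7 differed in the same direction. These correlations run across probe sets of the same 6 arrays and are given as a description. Cross-hybridization of the frog's own transcripts with these probes was not tested.

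The tissues of the tail showed few members past the unadjusted threshold, and 0 passed after adjustment in any of the 21 gene lists described. Counts are read against the 2.72% and 2.77% of all probe sets in the respective directions, and medians against -0.00599 over all probe sets. Of 64 skeletal muscle probe sets, 0 were higher in Salam and 4 were higher in −Salam at an unadjusted p under 0.05, and the list's median difference was -0.11. The 4 were casq2.S, the calcium-binding protein of the sarcoplasmic reticulum, tpm2.L, a tropomyosin, myl1.S, a myosin light chain, and the transcription factor mef2d.S. casq2.S was at -0.74, -0.42 and -0.65 on the Salam arrays and at 1.07, 0.94 and 0.95 on the −Salam arrays, a difference of -1.59 (SE 0.50, adjusted p 0.755 in limma). The groups did not overlap in any of the 4, and casq2.S had the smallest p. tpm2.L had 1 −Salam array at -0.12 and another at 2.66, and without the latter, −Salam array 3, its difference was -0.96.

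In the epidermis list of 43 probe sets, 1 was higher in Salam and 2 in −Salam, with a median of 0.0033. jup.L, the junction protein plakoglobin, differed by 2.36 (SE 0.78), the keratin krt70.L by -1.52 and the uroplakin upk1a.S by -1.73, and the groups overlapped in upk1a.S. The basement membrane list of 19 had 0 in either direction (median -0.0052). Of 46 probe sets for the interstitial matrix, 1 was higher in Salam, has2.S, the enzyme that makes hyaluronan, and 1 in −Salam, the fibrillar collagen chain col5a1.L, with a list median of 0.17. has2.S was at 0.45, 0.42 and 0.66 on the Salam arrays and at -0.12, -1.03 and -0.86 on the −Salam arrays, a difference of 1.18 (SE 0.47, adjusted p 0.893 in limma). Its groups did not overlap, while those of col5a1.L did (difference -1.53). Among 10 notochord and cartilage probe sets, 1 was higher in −Salam, the matrix protein matn4.L (-1.54), and the median was 0.088. The water and ion transport list, 58 probe sets of aquaporins, pumps and carriers, had 0 in either direction and a median of 0.23.

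Signalling lists gave similar counts. Of 108 Wnt and BMP probe sets, 4 were higher in Salam (the BMP effector smad1.S at 1.61, the Wnt receptors fzd8.L at 1.80 and fzd7.L at 1.99, and the activin receptor acvr2b.S at 2.06) and 1 in −Salam (the protease bmp1.S at -1.63), with a median of 0.17. smad1.S was at 1.09, 0.90 and 0.65 on the Salam arrays against -0.74, -0.25 and -1.20, but Cont array 2 (2.07) lay above both. Of 25 FGF probe sets 1 lay in each direction, the ligand fgf8.L (1.61) and the antagonist spry2.S (-1.54), and the median was 0.15. Without Salam array 1 the difference of fgf8.L was 0.83, and without Salam array 3 that of spry2.S was -0.78. The Notch and bHLH list of 46 had 1 higher in Salam, the bHLH factor tcf12.L (2.65), and 0 in the other direction, with a median of 0.11. The hypoxia and vessel list of 39 had 1, tek.S, the angiopoietin receptor of endothelium, and 0 in the other direction, with a median of 0.15. tek.S was at 0.75, -0.22 and 0.38 on the Salam arrays and at -2.77, -2.07 and -1.52 on the −Salam arrays, near Cont (-1.44 and -1.51), a difference of 2.42 (SE 0.69, adjusted p 0.728). Among 24 apoptosis probe sets, 1 was higher in Salam (pdcd6.L, 1.55) and 0 in −Salam (median -0.22), and among 30 of metamorphosis, 1 was higher in Salam (the receptor crhr2.S for corticotropin-releasing peptides, 2.64) and 0 in −Salam (median -0.032). pdcd6.L overlapped between the groups, and its difference was 0.86 without Salam array 2. Leukocyte and inflammation genes, 33 probe sets, had 1 in each direction, the cytokine il1b.S (1.61) and rela.L, with a median of 0.19.

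Cell division was covered by a pair of lists. Of 91 spindle and kinetochore probe sets, 2 were higher in Salam (stag2.L at 2.28 and smc3.L at 1.76, both of cohesin) and 4 in −Salam (cyclin A, ccna2.L, at -2.14, the kinases aurka.S at -1.81 and plk1.S at -1.81, and the condensin subunit smc2.L at -1.53). The median of -0.37 was the lowest of the 21 lists. ccna2.L was at -2.56, -2.81 and 0.23 on the Salam arrays and at 0.46, 0.46 and 0.36 on the −Salam arrays, so that Salam array 3 lay close to −Salam. The groups overlapped in smc3.L and plk1.S. Of 79 DNA replication and repair probe sets, 0 were higher in Salam and 4 in −Salam (rhno1.S, the repair kinase prkdc.L at -2.69, the helicase subunit mcm6.L at -2.68 and the helicase wrn.L at -1.59). The median was 0.030, and 41 of the 79 had a positive difference, whatever their p. The groups overlapped in mcm6.L and wrn.L, and within prkdc.L the Salam arrays ran from -3.33 to -0.99.

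Of 90 heat shock and chaperone probe sets, 6 past the unadjusted threshold were higher in Salam and 1 was higher in −Salam, while 48 of the 90 had a positive difference and the median was 0.090. The 6 were 2 probe sets of the co-chaperone dnajc7.L (2.45 and 1.41), hspbp1.L (1.64), hsph1.L (2.12), the mitochondrial hspa9.L (2.11) and the endoplasmic hspa5.L (1.93), and the 1 was the disulfide isomerase pdia3.S (-2.17). hspbp1.L was at 0.53, 0.62 and 0.53 on the Salam arrays and at -2.60, -0.45 and -0.18 on the −Salam arrays, and without −Salam array 1 its difference was 0.87. Cont (-2.19 and -1.20) was low as well. In the first probe set of dnajc7.L the −Salam arrays (-2.38, 0.95 and -2.60) overlapped the Salam arrays (0.48 to 1.504), as the groups also did in hspa9.L and hspa5.L, and in the second probe set of dnajc7.L they did not. The proteasome and ubiquitin list of 92 had 1 in each direction (the ubiquitin ligase scaffold cul4b.S at 1.55 and the proteasome subunit psma2.L at -2.40) and a median of -0.19. The respiratory chain list of 77 had 2 in each direction (the succinate dehydrogenase flavoprotein sdha.S at 2.63 and the ATP synthase subunit atp5f1d.L at 2.44, against the complex I assembly factor ndufaf7.S at -2.98 and cox7b.L of cytochrome oxidase at -2.20) and a median of 0.099. The neural list of 41 had 2 higher in Salam (celf3.L at 2.27 and pax6.L at 1.63) and 1 in −Salam (sox2.L at -1.80), with a median of -0.088, and the erythrocyte list of 21 had 0 and 1 (the membrane skeleton protein epb41.L at -2.07), with a median of -0.064. Single arrays carried much of 3 of these differences: without Salam array 1, celf3.L differed by 1.46 and pax6.L by 0.91, and cox7b.L differed by -1.42 without Salam array 3 and by -3.19 without Salam array 2.

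**Figure D4:**
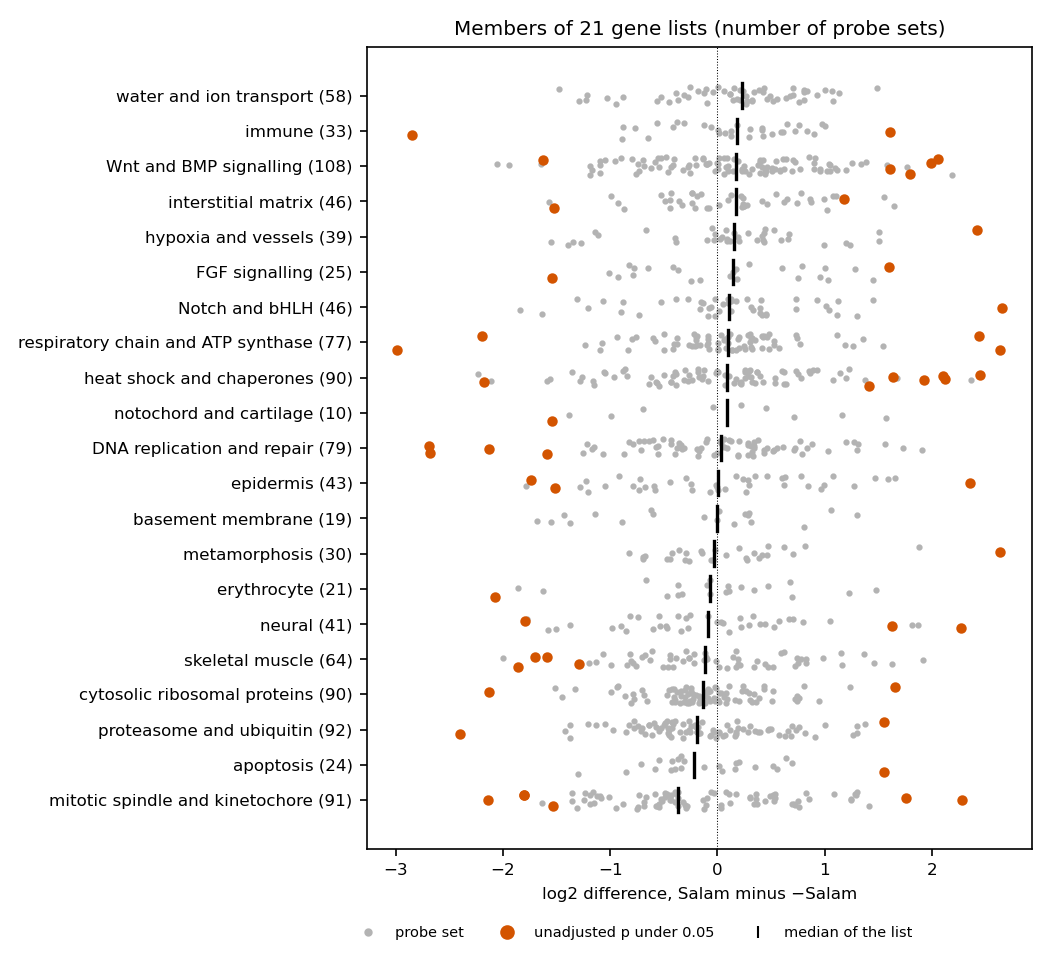
Log2 difference Salam minus −Salam (horizontal axis) of the probe sets of 21 gene lists, ordered by their medians (black bars), with probe sets at an unadjusted p under 0.05 in orange and all others in grey; positions within a row are spread at random. The medians run from -0.37 for the spindle list to 0.23 for water and ion transport, and 0 members passed after adjustment.

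Shorter sets of cell type markers were also compared, as the mean of their centred values on each array. The arrays of Salam and −Salam overlapped for skeletal muscle, epidermis, notochord and cartilage, erythrocytes, neural cells and leukocytes, and 0 of the markers of these 6 types had an unadjusted p under 0.05. Only the vessel set, of which 3 of 6 markers were measured, did not overlap. It was at -0.59 to 0.49 in Salam and at -1.16 to -0.85 in −Salam. Of its 3 probe sets, 1 was tek.S, with a difference of 2.42, while the median difference of the 3 was 0.45.

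One list stood out for overlap rather than for size, and it was singled out after its values were seen. Of 90 probe sets for cytosolic ribosomal proteins, 1 was higher in Salam (rpl23a.S, 1.66) and 1 in −Salam (rpl29.L, -2.13) at an unadjusted p under 0.05, and the list's median difference was -0.13. Without −Salam array 3 the difference of rpl23a.S was 1.08. Yet the Salam arrays lay wholly below the −Salam arrays in 18 of the 90 (20%) and wholly above in 2, against 5.14% and 4.98% of all probe sets. The 18 share their arrays and are not separate observations. The differences were small: rps14.S was at -0.31, -0.34 and -0.36 on the Salam arrays and at 0.029, 0.18 and -0.021 on the −Salam arrays, and rpl8.S at -0.11, -0.099 and -0.082 against -0.0020, 0.15 and 0.056. In limma, which draws each probe set's spread towards a common value, these had unadjusted p of 0.398 and 0.714. rps3.S, of the small subunit, was at -0.27, -0.79 and -0.82 against 0.16, 0.15 and 0.14.

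The ribosomal probe sets were also among the most even of the array. When all probe sets were split into 10 equal classes by their spread on the 8 arrays outside the comparison, 41 of the 90 fell in the class of lowest spread. In that class the median absolute difference between Salam and −Salam was 0.32 over all members and 0.26 over the 41, and the 41 ran from -0.93 to 0.43. In the class of highest spread it was 0.67. By array, the ribosomal median was -0.080, -0.041 and -0.089 in Salam and -0.018, 0.085 and 0.049 in −Salam. The 2 Cont arrays, at -0.068 and 0.094, and the Drago arrays, from -0.076 to 0.18, spanned the gap between the Salam and the −Salam arrays. The mean of the hybridization controls, bacterial and phage transcripts added at hybridization, was -0.26, -0.24 and 0.41 on the Salam arrays and 0.080, 0.23 and -0.042 on the −Salam arrays, and its part in the ribosomal result was not tested. For the dragonfly, the same list had 4 probe sets with Drago wholly below −Drago and 5 wholly above, with a median difference of -0.026. Over all 15491 probe sets, Drago lay wholly below −Drago in 800 and wholly above in 845.

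**Figure D5:**
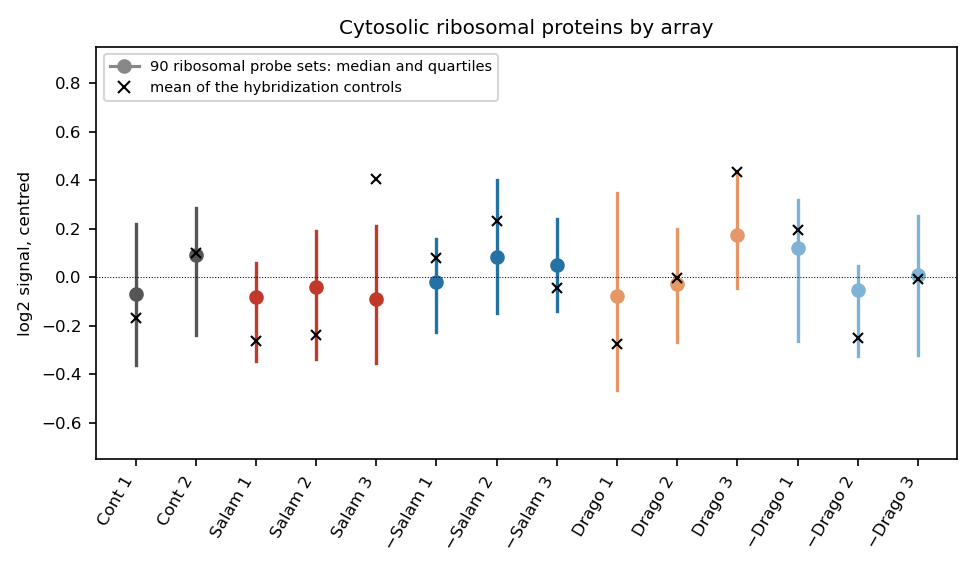
Centred log2 signal (vertical axis) of the 90 ribosomal protein probe sets on each of the 14 arrays, as median (circles) and quartiles (bars), with the mean of the hybridization controls as crosses. The medians of Salam (-0.089 to -0.041) lie below those of −Salam (-0.018 to 0.085), and the quartiles of all arrays overlap.

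Salam against −Salam was set beside Drago against −Drago, which share no array. This asked whether the removal of a predator went with the same differences for both predators. The dragonfly larvae were caged and harmed no tadpoles, so that the kind of predator cannot be told apart from bites and losses here. A difference between them, tested as an interaction in limma, was found in 0 of 15491 probe sets (0%) at an adjusted p under 0.05, with a smallest adjusted p of 0.435 and 860 probe sets at an unadjusted p under 0.05. Drago against −Drago itself had 0 at an adjusted p under 0.05 and 889 at an unadjusted p under 0.05. The 860 and the 889 stand beside 775 of 15491 that this threshold gives when nothing differs. Across probe sets, which are not independent, the correlation of the differences was -0.00657 (Pearson) and -0.00742 (Spearman). Of the 851 probe sets at an unadjusted p under 0.05 for the salamander, 427 (50.2%) had the same sign for the dragonfly. In 93 of the 15491 both comparisons had an unadjusted p under 0.05, 51 in the same direction (34 higher with the predator and 17 higher after removal) and 42 in opposite directions. Both comparisons use the same estimate of spread for a probe set, so one of low spread can pass in both. The number to be had when nothing differs was not computed.

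Several named genes had opposite signs for the predators, among them vps35.S, psma2.L, dlgap5.S, lsm8.S and rhno1.S. Of the named genes, vps35.S, pdap1.L and psma2.L had the smallest p of the interaction before adjustment. vps35.S differed by -2.58 (SE 0.57) for the salamander and by 1.70 (SE 0.57) for the dragonfly. psma2.L was at -1.92, -1.58 and 0.20 in Salam and at 0.40, 1.91 and 1.59 in −Salam, but at 2.02, 0.83 and 1.61 in Drago and at -1.92, -1.22 and -0.20 in −Drago. grem1.L, with 0.32 (SE 0.47) for the salamander, differed by 2.36 (SE 0.47) for the dragonfly. In pdap1.L the dragonfly difference was -0.40 (SE 0.51) beside 3.27 for the salamander. smc3.L and tpd52.L had the same sign in both, with 1.76 and 2.67 for the salamander and 2.56 and 1.69 for the dragonfly. None of these interactions passed after adjustment, their smallest adjusted p being the 0.435 given for all probe sets.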

How the data were processed

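The values analysed are those deposited by the authors, MAS5 signals on the log2 scale, which per the study's methods were made with GCOS 1.2 and GeneSpring 11.5 and centred on the median of all samples for each probe set. The log2 base was checked against 301 folds among the study's supplementary entries, all of which were matched within 0.001. Columns of unmapped samples numbered 0, and no filter on signal was possible. Groups came from the labels. The members, lists and alternatives were chosen with earlier results of these data known.

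In R 4.3.3, limma 3.58.1 was run on 15491 probe sets over 14 arrays with 1 mean per group (9 residual and 5.53 prior degrees of freedom), and p-values were adjusted by Benjamini-Hochberg over all of them. The pipeline was tested on simulated data. Folds are 2 to the power of a difference of log2 means.

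Named genes, with 1 symbol each unless stated, were the 10 selected by the study, the 12 smallest p without overlap and the 3 largest differences in each direction, and for each of 21 lists the 2 smallest p in each direction under 0.05. All other list members and the ribosomal examples were named after their values were seen. Leading genes are the 12 in each direction. Array number limits the precision. Alternatives were quantile normalization, array medians, linear means, a block for the replicate number, the 6 arrays alone, robust variance, ordinary tests, Dap as a term or within its levels, probe set types, and leaving out each array. The quantitative PCR of the study was not analysed here.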

Additional observations from a re-analysis of the deposited data

How the results depend on the processing

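The count at an adjusted p under 0.05 was 0 under every alternative run, for the comparison and for the interaction. Counts at an unadjusted p ran from 353 to 475 (higher in Salam) and from 380 to 457 (higher in −Salam) with single arrays left out. Counts over 5 fold then rose to 130 to 176 and 132 to 167, and probe sets without overlap to 1518 to 1581 (Salam above) and 1506 to 1642 (Salam below), since fewer arrays enter each mean and range. The same holds within Dap levels, which leave 1 array in 1 group: within high Dap 656 and 606 probe sets were over 5 fold and 5273 and 5305 did not overlap, and within low Dap 538 and 655, and 5127 and 5246. For the ribosomal list, an alternative added after the data were seen, the median was -0.094 within high Dap and -0.26 within low Dap. Within these levels, 40 and 45 of its 90 probe sets lay below and 24 and 26 above. With single arrays left out the median was -0.21 to -0.12, with 22 to 25 below and 4 to 8 above. These counts are to be read against all 15491 probe sets in the same setting. Within high Dap 5305 of these lay below and 5273 above, and within low Dap 5246 and 5127. With single arrays left out, 1506 to 1642 lay below and 1518 to 1581 above. The rise above 18 alone is thus no sign of a stronger ribosomal difference.

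Same-numbered arrays of the groups did not deviate together over the probe sets (r from -0.00205 to 0.0121). For arrays of different numbers r ran from -0.0108 to 0.012. Whether the numbers mark arrays that were processed together was not tested. With the replicate block, 414 and 416 probe sets had an unadjusted p under 0.05 and 0 an adjusted one. Among the 69 named genes, pdcd6.L reversed, to -0.12 within low Dap, and the cause was not tested. The kept direction of the others is no sign of stability, since several alternatives leave the means as they are and no gene passed the threshold in the first place. With 3 arrays in each group, the difference of pdap1.L, 3.27 with an SE of 0.51, did not pass after adjustment over all probe sets. Why 0 probe sets passed was not tested.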
